A study of Mus musculus with 8 samples.

Results

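The genes described here are cadherins and protocadherins, 21 autosomal genes of the 9224 genes with measured promoter sites. They were matched by gene symbol (protocadherins, numbered cadherins, Celsr genes, desmocollins and desmogleins) and held 472 of 203645 cytosines. Only 3 of the 21 belong to the clustered protocadherins, *Pcdhb2*, *Pcdhb5* and *Pcdhb13*, with 8 cytosines in all. The other 18 genes held 464 cytosines. *Pcdh19*, with 11 cytosines, lies on the X chromosome and was outside the rule.

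Germline stem (GS) cells are spermatogonia grown in culture that keep the capacity of stem cells. The study derived them from testes of F1 mice to compare offspring of intracytoplasmic sperm injection (ICSI) with offspring of natural mating. Reduced representation bisulfite sequencing (RRBS) was done on 8 lines. The control-F1 group had lines 29, 37, 44 and 45, from naturally mated mice, and the ICSI-F1 group had lines 11, 17, 20 and 21, from mice made by ICSI. Titles gave the B6 background and every line was labelled WT. The CD9-selected spermatogonia had been expanded in culture with GDNF and FGF2, so each value describes a cultured line, and each line had 1 library. The labels did not say whether lines came from separate mice, although the study's supplement numbers F1 mice with the same numbers. Spreads and p-values here describe differences between lines. The files hold no expression values for a check of the cell type.

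Cadherins are calcium-dependent adhesion proteins that hold like cells together through their extracellular repeats. Classical cadherins bind catenins at adherens junctions, desmocollins and desmogleins join cells at desmosomes, and Celsr proteins are seven-pass receptors of planar cell polarity. The clustered protocadherins lie in tandem arrays, from which single neurons express different combinations by promoter choice, and DNA methylation of the unused promoters is a known feature of that choice.

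The share of reads that kept a cytosine after bisulfite conversion is the methylation level of that cytosine. Reads carried no molecular identifiers, so intervals and limits below cover counting error only. The median coverage at the member cytosines was 37 to 70 reads per line once the authors' scaling was undone. Lines 29, 37, 11 and 17 (library set 1) and lines 44, 45, 20 and 21 (library set 2) were labelled in different ways, and both sets hold lines of each group. Over all members, set 2 was 2.81 percentage points higher than set 1, beside 2.27 over all autosomal promoter cytosines.

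RRBS reads start at MspI sites, whose sequence is CCGG. Of the 102 annotated autosomal genes that the symbols match, 57 are clustered protocadherins, with a median of 1 MspI site in the kilobase upstream of the start (range 0 to 3). The other 45 also had a median of 1 (range 0 to 16). Among genes in the table, the median was 1 for the 3 clustered genes (range 1 to 3) and 4 for the 18 others (range 1 to 16). Genes without measured sites were not analysed here.

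Stretches of 3 promoters are printed because they show where the high and low cytosines lay. They are the plus strand of mm10, read 5′ to 3′ from the RefSeq genome of that build, and capitals mark MspI sites. The stretches lie upstream of *Cdh26* (chr2:178429534-178429600), far upstream of *Cdh1* (chr8:106602559-106602688), next to the start of *Cdh1* (chr8:106603290-106603349), and upstream of *Pcdh10* (chr3:45377874-45377950).
Cdh26: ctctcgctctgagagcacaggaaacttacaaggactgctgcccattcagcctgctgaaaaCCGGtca
Cdh1 distal: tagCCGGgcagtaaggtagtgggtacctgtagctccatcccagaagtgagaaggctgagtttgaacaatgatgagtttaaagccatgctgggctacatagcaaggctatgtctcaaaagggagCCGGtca
Cdh1 proximal: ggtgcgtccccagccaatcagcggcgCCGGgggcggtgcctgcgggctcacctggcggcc
Pcdh10: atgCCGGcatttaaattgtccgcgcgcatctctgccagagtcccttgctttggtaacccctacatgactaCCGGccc

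All members lay within 1 kb upstream of the gene starts the authors used, but starts differ between annotations. In RefSeq, 273 of the 472 cytosines lie in an mRNA exon of their own gene, from 12 genes, among them all 88 of *Celsr2*. The 8 cytosines of the clustered genes lie in introns of the GENCODE genes *Gm37013*, *Gm37388* and *Gm42416*, and 1 of the *Cdh26* cytosines lies in an exon of the noncoding RefSeq gene *Gm35532*.

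Most cadherin promoters read as low in methylation, and the high readings were concentrated in MspI sites. Library preparation fills in the ends that MspI leaves, so a cytosine there can be read from added rather than cellular DNA. Whether that entered these values was not tested, and levels in MspI sites are given as read and may not be methylation of the cells. The 387 cytosines outside MspI sites had a mean of 3.21% over the 8 lines, and 4 of them (1.03%) reached 20%, at *Pcdhb13* and *Cdh26*. The 85 cytosines in MspI sites had a mean of 25.9%, and 33 (38.8%) reached 20%. Their line means were 23.8%, 21.6%, 29.1% and 27.8% in control-F1 lines 29, 37, 44 and 45, and 23.4%, 25.3%, 28.7% and 27.2% in ICSI-F1 lines 11, 17, 20 and 21. The difference between the kinds of cytosine was thus present in every line of both groups. It was also present over all autosomal promoter cytosines, with 26.6% in MspI sites and 3.69% elsewhere.

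**Figure D1:**
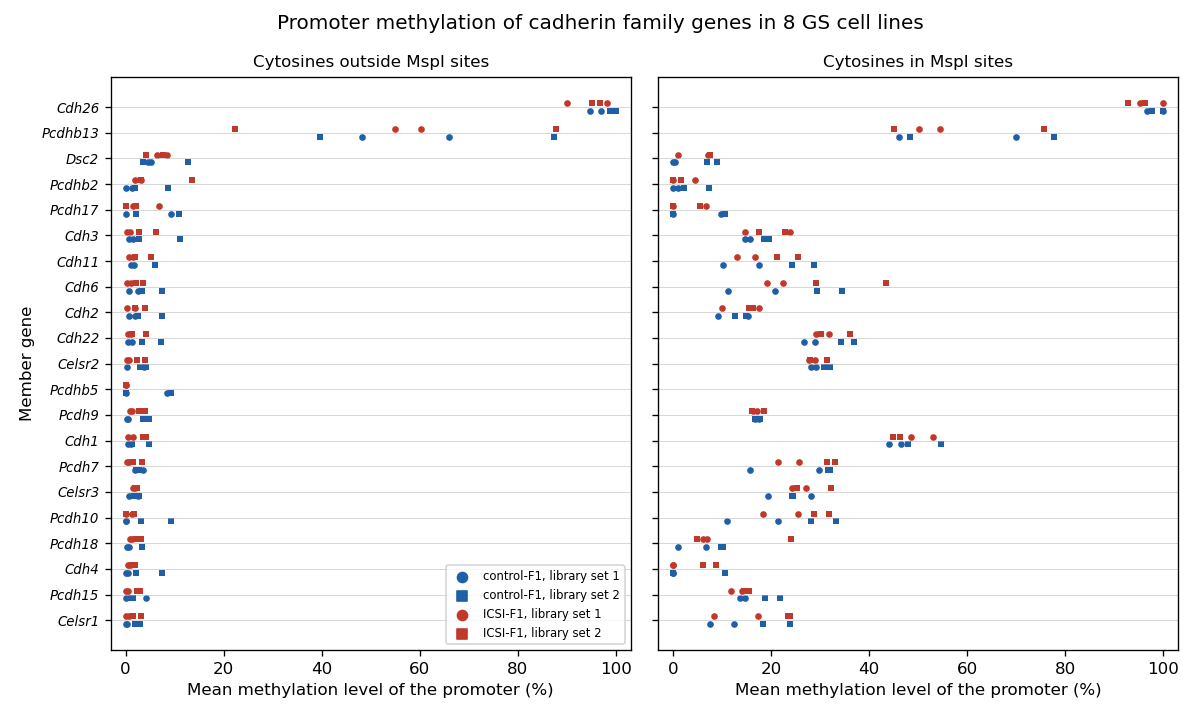
Mean methylation level (%) of each promoter in each of the 8 lines, for cytosines outside (left) and inside (right) MspI sites; colours mark the groups and shapes the library sets. Outside MspI sites only Cdh26 (96.3% over the lines) and Pcdhb13 (58.3%) stand above the rest, and Pcdhb5 has no cytosine in an MspI site.

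The paired strands of single CpGs showed the same split. Of 22 MspI CpGs read on both strands, 17 (77.3%) differed between strands by over 20 percentage points, with a median gap of 49.8. Of 151 other CpGs, 0 did, and their largest gap was 8.29. Over all autosomal promoters the shares were 51.1% and 0.0159%. At the *Celsr2* CpG at position 108415597 of chromosome 3, the plus strand had 1.86% and the minus strand 98.5%. At *Cdh22*, position 165235322 of chromosome 2, the plus strand was the high one, with 93.0% against 3.69%. Why the strands differed was not tested, and means that include MspI sites carry this difference.

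**Figure D2:**
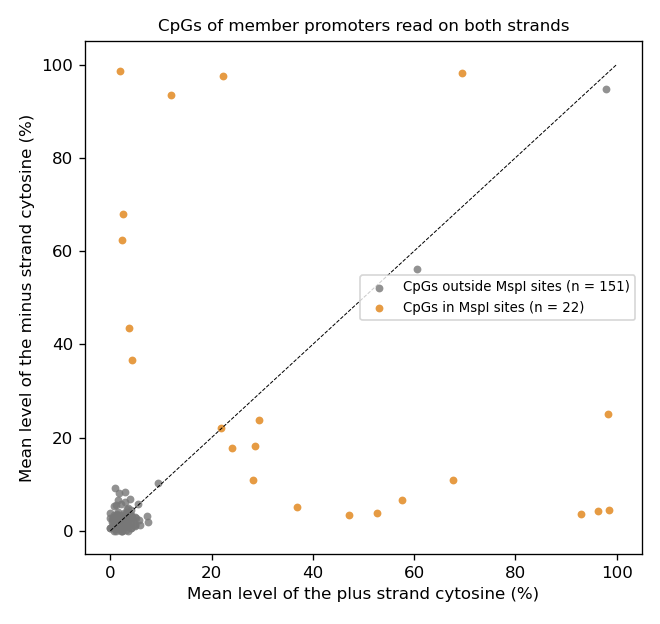
Mean level over the 8 lines of the plus (x) and minus (y) strand cytosine of each member CpG read on both strands, in percent, with the line of equal levels dashed. The 151 CpGs outside MspI sites lie near the line, and 17 of the 22 in MspI sites lie more than 20 points from it.

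*Pcdhb13* (ENSMUSG00000047307, chromosome 18, cytosines 37442379 to 37442440) was the clustered gene with an intermediate level. Over its 4 cytosines, control-F1 lines 29, 37, 44 and 45 had 47.2%, 67.9%, 82.5% and 43.96%. ICSI-F1 lines 11, 17, 20 and 21 had 55.2%, 54.7%, 81.8% and 33.8%. A line of each group (44 and 20) stood highest, and the groups overlapped. The means were 60.4% ± 18.2 (SD, n = 4) and 56.4% ± 19.7 (SD, n = 4), a difference of −4.04 percentage points (p = 0.743 by exact two-sided permutation of the 70 arrangements of lines, whose smallest possible p is 0.0286).

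At the cytosine at position 37442409, outside MspI sites, line 44 had 117 methylated of 151 reads (77.5%, 95% Wilson interval 70.2% to 83.4%) and line 21 had 31 of 124 (18.2% to 33.3%). The SD over the 8 lines was 17.7, and 150 of the 696 promoters with a mean of 20% to 80% (21.6%) had a larger one. As group means, the MspI sites of *Pcdhb13* were close to its other cytosines. The control-F1 and ICSI-F1 lines had 60.3% and 56.4% outside MspI sites and 60.5% and 56.4% inside them. Single lines could differ, with 45.1% inside and 22.4% outside in line 21, and 77.7% and 87.4% in line 44. Line 21 was uneven, with 15.7%, 19.7% and 25.0% at its first 3 cytosines and 74.6% at the last. The first and the last of these cytosines lie in MspI sites.

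**Figure D3:**
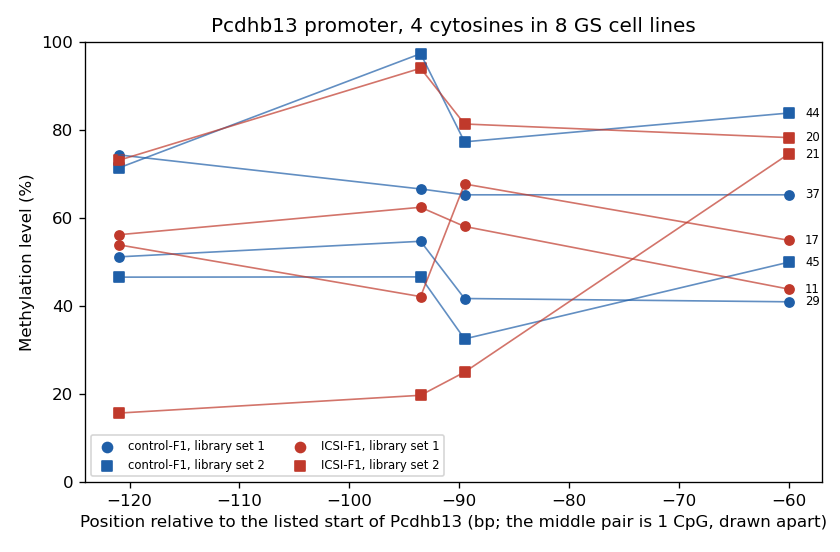
Methylation level (%) of the 4 Pcdhb13 cytosines in each line, by distance in bp from the listed start; numbers name the lines, and the cytosines of 1 CpG are drawn slightly apart. Lines 44 and 20, of different groups, stay above the others at the first 3 cytosines apart from line 37 at the outermost, and line 21 rises at the last.

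*Pcdhb2* (ENSMUSG00000051599) and *Pcdhb5* (ENSMUSG00000063687), in the same array, were low. *Pcdhb2* had 1.22%, 0%, 2.08% and 8.29% in the control-F1 lines and 1.32%, 3.53%, 9.05% and 2.65% in the ICSI-F1 lines. The single *Pcdhb5* cytosine had 8.51%, 0%, 9.30% and 0% in the control-F1 lines and 0% in each ICSI-F1 line. Only 14 to 51 reads covered it in the ICSI-F1 lines, and counts of 0 allow levels of up to 5.88% in line 11 and up to 21.4% in line 21. A difference of the size of the control-F1 levels was not detectable at the depth of ICSI-F1 lines 17, 20 and 21.

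Over all cytosines, the mean of the clustered genes exceeded that of the other members with *Pcdhb13* included and not without it. It was higher by 23.9 ± 8.61 percentage points (SD, n = 8 lines), in 8 of 8 lines. All 8 clustered cytosines lay outside CpG islands, while 376 of the 464 others lay in islands. Among cytosines outside islands the difference was 16.5 ± 8.82, again in 8 of 8 lines. Without *Pcdhb13*, a choice made after the values were seen, the difference over all cytosines was −3.69 ± 1.65, and 0 of 8 lines were above 0. That difference includes MspI sites, which read 25.3% in the other members and 2.08% in *Pcdhb2*. Outside MspI sites, *Pcdhb2* had 4.23% ± 4.58 and *Pcdhb5* 2.23% ± 4.13, beside 2.92% ± 1.49 for the other members (SD, n = 8 lines). With each promoter weighted equally, *Pcdhb13* included, the clustered minus other difference was 9.80. The clustered list averaged 31.8% ± 8.66 over the control-F1 lines and 29.7% ± 10.9 over the ICSI-F1 lines, and the other members 7.19% ± 1.99 and 6.58% ± 1.35 (SD, n = 4). Both differences were smaller than the SD between lines. For the other members it was −0.604 percentage points over all lines, with −0.000886 among the lines of set 1 and −1.21 among those of set 2.

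*Cdh26* (ENSMUSG00000039155), an atypical cadherin, was the highly methylated member. Its 3 cytosines lie 935 to 993 bp upstream of the start. Control-F1 lines had 98.02%, 95.4%, 98.5% and 100%, and ICSI-F1 lines 97.2%, 93.4%, 96.6% and 94.3%. The groups overlapped, with means of 97.98% ± 1.90 and 95.4% ± 1.81 (SD, n = 4; exact two-sided permutation p = 0.114).

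Among the type I classical cadherins, *Cdh1* (E-cadherin, ENSMUSG00000000303), the epithelial adherens junction cadherin that is also found on undifferentiated spermatogonia, had the highest mean over all cytosines, 17.5% over 21. It was 48.2% as read in MspI sites and 2.19% elsewhere. In the distal stretch printed above, the cytosines of the first MspI site had 69.5% on the plus and 98.1% on the minus strand, and those of the second 98.2% and 25.0%. In the proximal stretch, the cytosines of the MspI site had 21.8% and 22.03%, while the other 13 lay between 1.05% and 3.42%. Line means of *Cdh1* were 15.8%, 15.4%, 21.3% and 16.9% in the control-F1 lines and 18.1%, 17.2%, 17.8% and 17.8% in the ICSI-F1 lines, which overlapped. *Cdh2* (N-cadherin) had 4.57% ± 2.80 and 3.85% ± 1.64, and *Cdh4* (R-cadherin) 2.55% ± 3.25 and 1.27% ± 0.790 (SD, n = 4).

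The type II cadherins *Cdh22* and *Cdh11* had 10.1% ± 3.22 and 7.50% ± 3.75 in control-F1 lines and 9.07% ± 1.89 and 6.20% ± 2.40 in ICSI-F1 lines. Outside MspI sites both were low in both groups, at 3.12% and 1.78% for *Cdh22* and 3.69% and 2.32% for *Cdh11*.

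The seven-pass cadherins had low promoter means, all over cytosines in CpG islands. *Celsr2*, with the most cytosines of any member, had 4.45%, 7.56%, 7.07% and 8.36% in control-F1 lines and 4.42%, 4.92%, 8.003% and 6.15% in ICSI-F1 lines. Its means were 6.86% ± 1.70 and 5.88% ± 1.59 (SD, n = 4). *Celsr1* had 5.34% ± 2.99 and 6.16% ± 2.96, and *Celsr3* 4.50% ± 0.567 and 4.85% ± 0.605. The groups overlapped at all 3 genes.

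Of the nonclustered protocadherins, *Pcdh7* had 12.1% ± 2.66 and 11.7% ± 2.74, and *Pcdh10* 9.89% ± 5.85 and 9.18% ± 2.13. In the printed *Pcdh10* stretch, the first MspI site had 2.58% on the plus and 68.0% on the minus strand, and the 6 cytosines outside MspI sites had 0.481% to 2.74%. *Pcdh17* had the largest SD over the 8 lines among these (4.29, beside 4.09 for *Pcdh10*, whose range was wider), with 0%, 9.36%, 10.9% and 1.93% in the control-F1 lines, and 6.88%, 1.39%, 0.427% and 1.97% in those of ICSI-F1 mice. Its high lines belong to both groups and both library sets. *Dsc2*, the one desmosomal member, had 5.70% ± 3.85 and 6.36% ± 0.989 (SD, n = 4).

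No member promoter or cytosine passed limma or the logistic model for ICSI-F1 against control-F1 lines. The study's rule asks for a difference over 20 percentage points with no reversed line. The first reading used here was every ICSI-F1 line on the same side of the control-F1 mean. By that reading 0 of 472 member cytosines were hypermethylated (0.274% of all sites) and 0 hypomethylated (0.0506% of all), with 0.324% of all sites past it in either direction. A stricter reading, every ICSI-F1 line beyond every control-F1 line, also gave 0 member cytosines, beside 0.0673% and 0.00884% of all sites. The extreme differences were 16.2 points at *Cdh3* (position 106510501, chromosome 8) and −14.0 points at *Cdh2* (position 16809908, chromosome 18). The *Cdh3* cytosine lies in an MspI site and the *Cdh2* one does not. Outside MspI sites the largest increase was 11.3 points. A logistic model with moderated dispersion could be fitted to 456 member cytosines and to 196818 of all sites. It gave 0 member cytosines at an adjusted p under 0.05 (0.0% of all tested sites), and the smallest member adjusted p was 0.553. At an unadjusted p under 0.05 it gave 5 higher (1.1% of those tested, beside 2.60% of all tested sites). It gave 22 lower (4.82%, beside 4.47%), and 12 of the 22 lay in *Celsr2*, where neighbouring cytosines share reads.

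By limma on summed reads, 0 of 21 promoters passed at an adjusted p under 0.05 (0.0% of all promoters in each direction), and 0 at an unadjusted p under 0.05 (1.63% of all higher, 1.60% lower). For *Cdh26* limma gave −1.19 on the log2 scale of methylated over unmethylated reads (95% interval −2.83 to 0.45), and for *Pcdhb13* −0.29 (−1.85 to 1.27). The exact permutation test gave 0 member promoters at an unadjusted p under 0.05 (1.46% of all), with 0.114 the smallest member p. Over 9224 promoters its adjusted p could fall under 0.05 only if most promoters shared the smallest possible p. The groups were fully apart at 0 of 21 promoters, beside 0.672% of all promoters with ICSI-F1 higher and 0.791% with it lower. The mean was lower in ICSI-F1 lines at 15 of 21 promoters, beside 55.4% of all promoters.

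**Figure D4:**
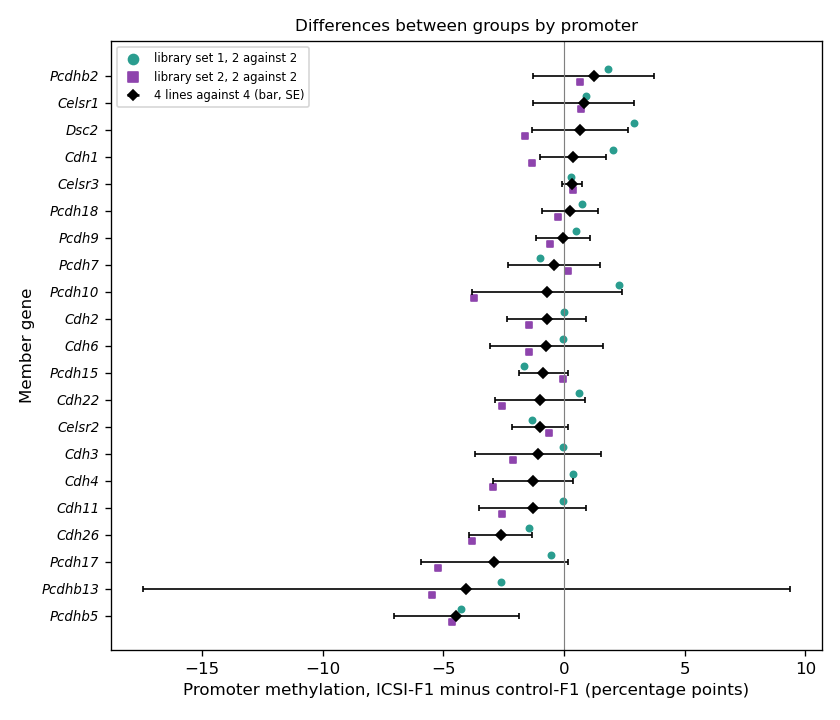
Promoter methylation in ICSI-F1 minus control-F1 lines in percentage points: diamonds with SE bars for 4 lines against 4, circles and squares for each library set alone. Differences run from −4.45 (Pcdhb5) to 1.24 (Pcdhb2), and the widest bar is that of Pcdhb13.

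The groups did not overlap at 4 member cytosines, 1 higher in ICSI-F1 (0.427% of all sites) and 3 lower (0.679%). All 4 had low levels. At *Celsr2* (position 108415787, chromosome 3), control-F1 lines had 4.76%, 11.8%, 5.13% and 13.1% and every ICSI-F1 line 0%, which allows up to 3.12% to 5.77% by line. At *Pcdh7* (position 57717402, chromosome 5), control-F1 lines had 5.00%, 7.14%, 6.67% and 3.39% and every ICSI-F1 line 0%, which allows up to 3.70% to 6.52%. At *Pcdh9* (position 93891020, chromosome 14) the means were 7.24% and 1.27%, and at *Cdh2* (position 16809793), the higher one, 1.34% and 7.41%. The last pair are in MspI sites. A count of 0 allows up to 7.89% in ICSI-F1 line 11 at *Pcdh9* and up to 13.0% in control-F1 line 45 at *Cdh2*. At *Celsr2* only the limit of line 11 (5.77%) reached a control-F1 level, the lowest being 4.76%. The limits of lines 17, 20 and 21 there (4.69%, 3.75% and 3.12%) stayed below every control-F1 line. At *Pcdh7*, *Pcdh9* and *Cdh2* the limits reached at least 1 level read in the other group. These are readings of single strands. On the opposite strand of the *Celsr2* CpG (position 108415788) the groups overlapped, with ICSI-F1 lower (unadjusted p = 0.794 by the logistic model). They also overlapped on that of the *Pcdh7* CpG (position 57717403), with ICSI-F1 higher (unadjusted p = 0.487 by the same model).

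No promoter of a protein that works with cadherins, or of a regulator of the protocadherin arrays, passed limma. Of 32 listed partners (catenins, desmosomal plaque and polarity proteins, and giant cadherins), 20 had measured promoters, 8 higher and 12 lower in ICSI-F1 lines, with a median difference of −0.206 points. *Fat2*, a giant cadherin, was the highest at 95.9%. Of 15 listed regulators (such as CTCF, cohesin and DNA methyltransferases), 7 were measured, 2 higher and 5 lower, with a median of −0.880. The medians were −0.728 over the members and −0.161 over all promoters, and by limma 0 of either list passed at an adjusted p under 0.05 or at an unadjusted p under 0.05, beside the shares of all promoters given above.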

How the data were processed

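RRBS libraries of 8 GS cell lines were sequenced as paired reads. Per the labels and the study's methods, the authors trimmed reads with Trim Galore 0.5.0 in its RRBS, nondirectional mode, aligned them to mm10 with Bismark 0.20.0, and counted cytosines with methylKit (1.16.0 per the labels, another version in the methods). They scaled coverage between lines, kept cytosines with at least 10 reads, and left strands separate. The deposited values are whole numbers after that scaling, handled here as a score rather than raw counts. The scaling factors were read from the gaps between values, and summed unscaled coverage was 9121937 to 16781748 reads per line. A total of 203644 of the 203645 cytosines lay in a CpG of the reference.

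Levels were averaged over cytosines per line, then over lines. Every test ran on the whole table with Benjamini-Hochberg adjustment: a quasi-binomial logistic model with dispersion moderated by limma 3.58.1 (R 4.3.3), limma with a mean-variance trend on log2 ratios of summed reads plus 1, and exact permutation of promoter means. The first of these was planned for read counts, and the scaling was also undone as an alternative. Members and lists were chosen with earlier results of these data known. Genes described singly are those with the highest levels, largest differences or spreads, the most or fewest cytosines, and *Cdh1*, *Cdh2* and the Celsr genes. *Dsc2*, *Cdh3*, *Pcdh9* and *Fat2* were added after their values were seen. Library sets were told apart by how the labels were filled in.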

Additional observations from a re-analysis of the deposited data

Results flagged for a closer look

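Of 46 sets of 4 lines examined for a line far from the others, 2 held one, and chance gives about 1 in 20. Both were ICSI-F1 line 20, which had 11.9% at the *Cdh22* promoter and 5.757% at the *Celsr3* promoter, above the other 3 ICSI-F1 lines. Line 20 belongs to library set 2, and control-F1 lines 44 and 45 of that set had 11.5% and 13.85% at *Cdh22*. ICSI-F1 line 21, also of set 2, had 8.34% there. At *Celsr3*, lines 44, 45 and 21 of set 2 had 5.24%, 4.34% and 4.61%.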

How the results depend on the processing

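Of 138 alternative values of the list means and counts, 126 stayed within the spread between lines or at the same count. These 126 include counts from the exact permutation test at an adjusted p under 0.05. That test could reach this threshold only if most promoters shared its smallest possible p, so those counts say nothing about stability. The clustered minus other difference was 9.80 with promoters weighted equally, 14.3 in MspI sites only and −3.69 without *Pcdhb13* (the latter pair chosen after the data were seen). Leaving out 1 line gave 22.2 to 25.8 for it, −6.96 to 1.84 for the group difference of the clustered genes and −1.30 to 0.0169 for that of the other members. Hypermethylated member cytosines numbered 1 at a threshold of 10 points (0.841% of all sites) and 2 in either library set alone (0.871% in set 1, 0.42% in set 2), hypomethylated ones 2 at 10 points (0.519%) and 2 in set 2 alone (0.264%), beside member shares of 0.212% for 1 and 0.424% for 2, and leaving out 1 line gave 0 to 2 and 0 to 1. Promoter and cytosine tests gave 0 member calls under every alternative run, with a smallest member adjusted p of 0.0672, from the logistic model with library set as a covariate. Over all sites, the logistic model without that covariate called 60 higher and 10 lower when control-F1 line 44 was left out. The other alternatives of the logistic model, the covariate included, called 0 to 16 in all. Among 15 named promoters, none of them called, 9 changed sign when 1 line was left out, within −0.281 to 1.69 for *Cdh1*, −0.241 to 2.09 for *Celsr1*, −2.79 to 1.73 for *Pcdh10*, −1.70 to 0.680 for *Pcdh7*, −12.5 to 3.50 for *Pcdhb13*, −1.58 to 0.606 for *Cdh2*, −2.05 to 0.280 for *Cdh22*, −2.13 to 0.242 for *Cdh4* and −0.400 to 3.04 for *Pcdhb2*. With summed reads *Cdh1* had −0.773 and *Celsr1* −0.0912, and without MspI sites *Celsr3* had −0.0163. The cause was not tested. Clustered genes have no island cytosines, so that alternative gave no value, and single library sets, 2 lines against 2, were not tested. No paired analysis was possible because the groups share no line numbers.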
